A study of Homo sapiens with 6 samples.

Results

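The cytosolic ribosomal protein genes encode the proteins of the large (RPL) and small (RPS) subunits of the ribosome in the cytosol. They were taken as every gene whose symbol is RPL or RPS followed by a number, with an optional A, L or X at the end, or RPLP0, RPLP1, RPLP2 or RPSA, and which had at least 1 probe set with that symbol alone. Pseudogenes and the S6 kinases were left out. This gave 61 of 18417 genes, 39 of the large and 22 of the small subunit. RefSeq holds 81 protein-coding symbols of this form, and the other 20, among them RPLP0, RPSA and RPL15, had no probe set of their own and were not analysed here. The marker RPS6 was among the 61 genes.

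The values came from 6 Affymetrix arrays, 1 per siRNA in each of the lines A673 and SK-N-MC. Both are established cell lines from Ewing sarcoma, a cancer that arises mostly in bone. Each line received a control siRNA, an siRNA against DKK2 (siDKK2), which encodes a secreted modulator of Wnt signalling, or an siRNA against ITM2A (siITM2A), which encodes a membrane protein. Values are deposited RMA values, read here as log2, so a difference of 1 is a 2-fold change. There was 1 array for each line and siRNA, no label says that the arrays of a line came from separate cultures, and p-values therefore measure the spread between these arrays only. The number in the siITM2A sample labels is 7 in A673 and 1 in SK-N-MC, so the labels do not say that both lines received the same ITM2A oligonucleotide.

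Array medians over all probe sets lay between 3.35 and 3.44, and the correlation across probe sets was 0.986 to 0.991 within a line and 0.959 to 0.965 between lines. DKK2 was lowest on the siDKK2 array of each line, at 7.73 against 8.64 with the control siRNA in A673 and 6.5 against 8.01 in SK-N-MC. ITM2A was lowest on the siITM2A arrays, at 5.03 against 8.52 in A673 and 6.10 against 9.48 in SK-N-MC. Of 8 Ewing sarcoma markers 7 were measured, with values from 5.11 (FLI1) to 10.73 (CD99). Between the lines CD99 and CCND1 were higher in A673, with differences of 0.84 and 1.23, NKX2-2 and STEAP1 were lower, with -0.54 and -1.24, and EWSR1, FLI1 and PRKCB did not pass. Markers of blood, endothelial, epithelial and glial cells (PTPRC, CD3E, PECAM1, EPCAM, GFAP) stayed between 1.90 and 3.25.

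A ribosome is built from ribosomal RNA and equal numbers of almost all ribosomal proteins, so cells keep these genes in balance, and their messenger RNAs are among the most abundant in dividing cells. Most human ribosomal protein messages begin with a C followed by an unbroken run of pyrimidines, the 5′ terminal oligopyrimidine tract, through which mTOR and the RNA-binding protein LARP1 set their translation. Free ribosomal proteins can also signal: RPL5 and RPL11, bound to 5S ribosomal RNA, hold back MDM2 and so raise p53 when ribosome assembly is disturbed.

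The start sites show this tract. RefSeq promoter entries (GRCh38.p14) were found for 50 of the 61 genes. In 36 of the 50 (72.0%) the first transcribed base was C with 4 pyrimidines after it, compared with 5.14% of 27305 genes with an entry; this form of the rule was chosen after the sequences were seen. The following stretches run from 45 bases before the first transcribed base to 15 bases from it, 5′ to 3′ on the strand of the gene. Capitals mark the unbroken pyrimidine run over the first transcribed base. RPS6, RPL29, RPL14 and RPL27 are shown because they were among the genes with the largest differences between the lines. RPS25 is shown because it was not lower in A673, and RPS27L and RPL10L as paralogs without the tract at the annotated start.
RPS6, chr9:19380222-19380281, minus strand: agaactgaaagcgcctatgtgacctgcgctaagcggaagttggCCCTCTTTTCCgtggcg
RPL29, chr3:51995881-51995940, minus strand: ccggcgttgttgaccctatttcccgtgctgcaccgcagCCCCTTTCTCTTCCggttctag
RPL14, chr3:40457294-40457353, plus strand: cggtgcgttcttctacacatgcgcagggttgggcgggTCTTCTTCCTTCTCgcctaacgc
RPL27, chr17:42998374-42998433, plus strand: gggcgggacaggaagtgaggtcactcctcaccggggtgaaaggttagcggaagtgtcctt
RPS25, chr11:119018329-119018388, minus strand: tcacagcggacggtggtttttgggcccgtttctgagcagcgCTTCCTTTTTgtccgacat
RPS27L, chr15:63157463-63157522, minus strand: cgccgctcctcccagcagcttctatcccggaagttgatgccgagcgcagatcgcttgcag
RPL10L, chr14:46651767-46651826, minus strand: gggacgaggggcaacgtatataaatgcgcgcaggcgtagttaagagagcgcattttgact
The run is 11 bases long in RPS6, 14 in RPL29 and RPL14, and 10 in RPS25. In RPL27, RPS27L and RPL10L the first transcribed base of the RefSeq entry is not a pyrimidine.

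Searched over the whole entry of 250 bases before and 50 from the start, on both strands, CCGGAAG, a core letter sequence of ETS factor sites, was found in 38.0% of the 50 genes against 12.2% of all genes with an entry. AAGATGG, the core of YY1 sites, was found in 12% against 7.11%, and TATAAA in 10% against 14%. TCTTTC, searched on the gene's strand within 10 bases of the start, was found in 18.0% against 1.23%. The 36 genes with the tract by this rule had a median difference between the lines of -0.51 on the log2 scale and the 14 others -0.48. The rule reads only the start annotated in RefSeq, so the 14 are not shown to lack a tract. The 19 genes with CCGGAAG had a median of -0.50 and the 31 without it -0.52.

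The ribosomal protein probe sets were bright. Their mean value over the 6 arrays had a median of 9.88, with a range of 2.95 to 11.86, against a median of 4.04 over all genes; 41 of the 61 were at 9 or above, as were 311 of all 18417 genes. Only 4 lay below the median of all genes, and all 4 are paralogs of another member or of a standard ribosomal protein: RPL10L, RPS27L, RPL3L and RPL39L. Probe sets differ in how strongly they bind, so these values describe the signal and do not rank the genes by transcript abundance.

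The clearest pattern was between the cell lines: most of the set was lower in A673 than in SK-N-MC. Over all 3 arrays of each line, with siRNA as a term in limma's fit, 43 of the 61 genes were lower in A673 at a Benjamini-Hochberg adjusted p under 0.05 (70.5%), against 14.7% of all genes tested, and 1 gene, RPL39L, was higher, against 13.8% of all genes. The median difference was -0.46 over the 61 genes, -0.52 for the large and -0.45 for the small subunit, and -0.02 over all genes. The genes that passed as lower ranged from -1.30 to -0.34 with a median of -0.62, and 6 of the 61 were at least 2-fold lower, against 3.23% of all genes. Among genes with a mean value of at least 9, a limit chosen after the data were seen, 30 of 41 ribosomal protein genes were lower against 24.4% of all 311. The 311 include these 41 genes, which hold 30 of the 76 lower ones. In RNA of a whole culture, fewer cells with a transcript and less of it per cell cannot be told apart.

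The same direction was seen under each siRNA. In 52 of the 61 genes A673 was below SK-N-MC with the control siRNA, with siDKK2 and with siITM2A alike, against 29.4% of all genes, and in 3 genes it was above each time. The median of the differences was -0.48 between the control arrays, -0.44 between the siDKK2 arrays and -0.61 between the siITM2A arrays. All 3 A673 values lay below all 3 SK-N-MC values in 49 genes (80.3%), against 20.8% of all genes, and above them in 2 genes, RPL8 and RPL39L, against 18.1%. Across the 61 genes the differences correlated at a Pearson's r of 0.88 to 0.92 between pairs of siRNAs, which come from separate arrays. RPL39L, far from the rest at 1.86, 2.23 and 1.89, can raise these values. The genes are not independent replicates, and no such correlation was taken over all genes.

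How many genes passed rested partly on the siITM2A arrays. Without the siITM2A array of A673, or without that of SK-N-MC, 22 genes were lower in place of 43, and the median difference was -0.43. These 22 also passed with any other array left out. They were 22 of the 23 genes with a difference of -0.61 or beyond; the exception, RPL19, did not pass without either siITM2A array. The other 20 that lost the call had smaller differences, from -0.58 for RPL30 to -0.34 for RPLP2.

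**Figure D1:**
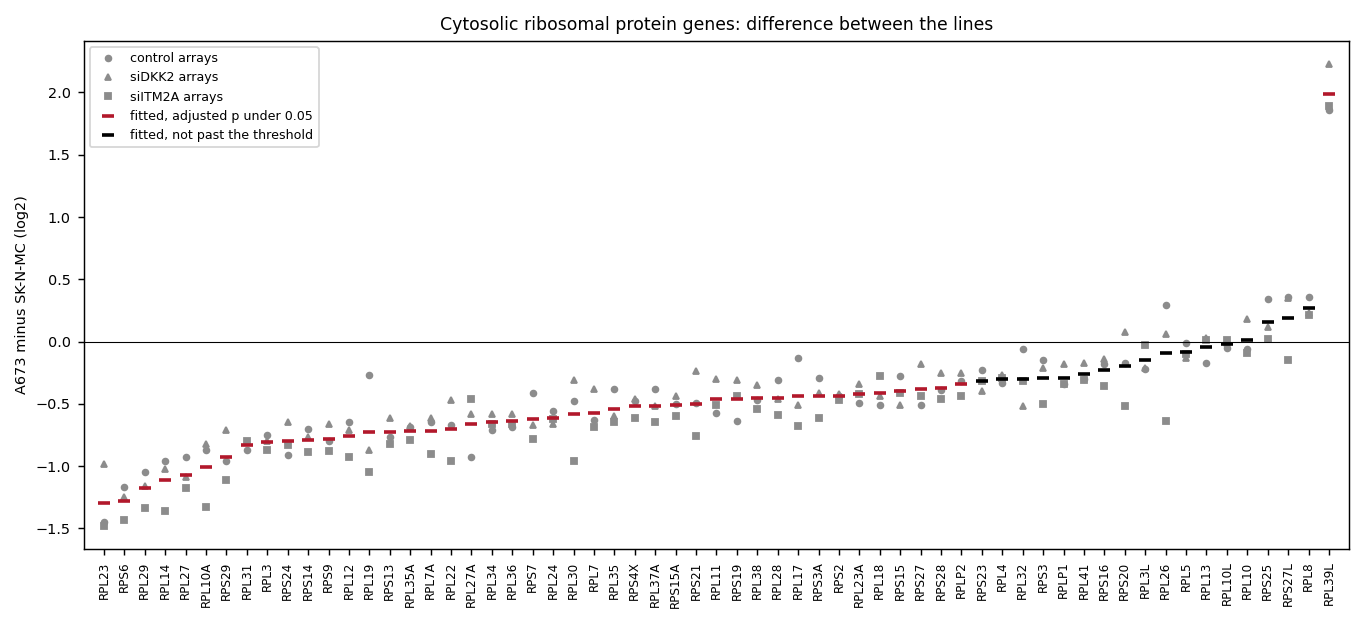
A673 minus SK-N-MC difference (log2, vertical axis) of each of the 61 ribosomal protein genes (horizontal axis, ordered by the fitted difference). Grey symbols are the differences between the 2 control, the 2 siDKK2 and the 2 siITM2A arrays, and bars are the fitted differences, red where the adjusted p was under 0.05. A total of 56 genes lie below 0, 43 of them in red, and RPL39L lies alone at 1.99.

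RPS6, the substrate of the S6 kinases after which they are named, showed one of the largest differences. It read 9.26, 9.30 and 9.22 in A673 with the control siRNA, siDKK2 and siITM2A, and 10.44, 10.55 and 10.65 in SK-N-MC in the same order. The spread within a line was small, 0.04 (SD, n = 3) in A673 and 0.11 (SD, n = 3) in SK-N-MC, and no value of one line reached those of the other. RPS6 was lower in A673 by limma with a difference of -1.28 ± 0.11 (SE), 2.44-fold, adjusted p = 5.3e-05.

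RPL23, which lies on the face of the large subunit that meets the small one and can bind MDM2, had the largest fitted difference. Its values were 5.53, 5.39 and 5.38 in A673 and 6.98, 6.37 and 6.86 in SK-N-MC. The siDKK2 array gave the lowest value in SK-N-MC, which still lay above all 3 of A673. The difference was -1.30 ± 0.13 (SE), 2.47-fold lower, adjusted p = 0.000127 by limma.

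RPL29, also known as a heparin-binding protein of the cell surface, read 9.74, 9.93 and 9.61 in A673 and 10.79, 11.09 and 10.95 in SK-N-MC. The lines did not overlap, and the difference was -1.18 ± 0.11 (SE), adjusted p = 9e-05 by limma. RPL14, a further large subunit protein, read 9.94, 9.99 and 9.69 against 10.90, 11.01 and 11.05. It was lower by 2.17-fold, with its lowest value on the siITM2A array of A673.

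RPL27, mutated in some patients with Diamond-Blackfan anaemia, an inherited failure of red cell production, read 7.89, 7.95 and 7.82 in A673 and 8.82, 9.05 and 9.0 in SK-N-MC. It was 2.10-fold lower in A673 (adjusted p = 0.000141 by limma). RPL10A, the protein of the L1 stalk where spent transfer RNA leaves the ribosome, read 8.04, 8.30 and 7.72 against 8.91, 9.12 and 9.05. Its A673 values were the most spread of this group (SD 0.29, n = 3), and the difference of -1.01 ± 0.13 (SE) was still several times its error.

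RPS29, a zinc-binding protein of the small subunit head, read 4.56, 4.90 and 4.6 in A673 and 5.52, 5.61 and 5.71 in SK-N-MC, a difference of -0.93. RPL31, at the rim of the tunnel through which the new chain leaves the ribosome, read 8.62, 9.0 and 8.77 against 9.50, 9.81 and 9.58, a difference of -0.83. In both genes the lines stood apart on every array, at very different signal. Over the 61 genes the mean value and the line difference were nearly unrelated (Spearman's rho 0.07 across genes, which are not independent replicates).

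**Figure D2:**
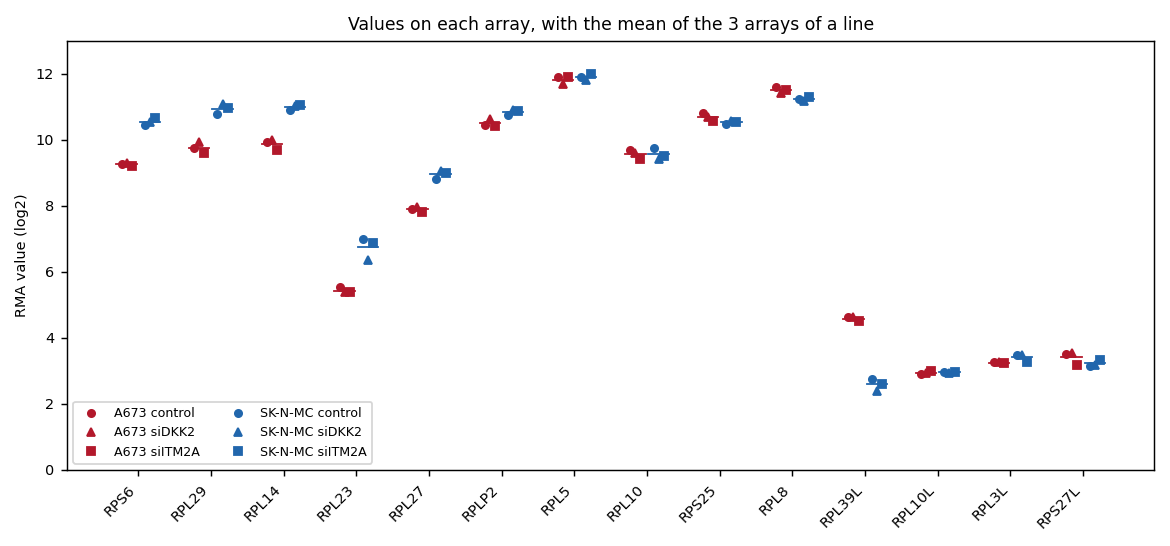
Deposited RMA values (log2, vertical axis) of 14 ribosomal protein genes on each of the 6 arrays, with A673 in red and SK-N-MC in blue, the siRNA shown by the symbol and a line at the mean of the 3 arrays of a cell line. RPS6, RPL29, RPL14, RPL23, RPL27 and RPLP2 lie lower in A673 without overlap, RPL5, RPL10 and RPS25 overlap, and RPL8 and RPL39L lie higher in A673.

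RPL39L went the other way. It is a paralog of RPL39, a small protein of the exit tunnel wall, and is best known from male germ cells. It read 4.62, 4.62 and 4.50 in A673 and 2.77, 2.40 and 2.60 in SK-N-MC. The A673 arrays lay above the median of all genes and the SK-N-MC arrays well below it. The difference was 1.99 ± 0.12 (SE), 3.98-fold higher in A673, adjusted p = 7e-06 by limma. RMA compresses differences of dim probe sets, and the lower end here is near the floor.

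RPL8, close to the site where peptide bonds are made, read 11.60, 11.41 and 11.51 in A673 and 11.24, 11.18 and 11.30 in SK-N-MC. It was the other gene with all A673 arrays above, but its difference of 0.27 ± 0.10 (SE) did not pass (adjusted p = 0.0969 by limma). RPS25, which several viral messages need to recruit ribosomes, read 10.82, 10.69 and 10.56 against 10.48, 10.56 and 10.55. A673 was above SK-N-MC under each siRNA, but its lowest value met the highest of SK-N-MC, and the difference was 0.16 and did not pass (adjusted p = 0.373 by limma).

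RPL10, which joins the large subunit late in its maturation, read 9.70, 9.59 and 9.41 in A673 and 9.76, 9.41 and 9.50 in SK-N-MC. RPL13 read 8.89, 9.41 and 9.25 against 9.06, 9.38 and 9.25. RPL5, the carrier of 5S ribosomal RNA, read 11.89, 11.68 and 11.90 against 11.90, 11.81 and 12. These 3 genes overlapped between the lines, with differences of 0.01, -0.04 and -0.08 and standard errors of 0.10 to 0.11, and are the bright members that stood closest to equal.

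The 4 paralogs with dim signal can be set beside the partners that were measured. RPL10L, an autosomal retrocopy of RPL10 with a role in the testis, stayed between 2.90 and 3.00 on all 6 arrays, and the lines overlapped, with a difference of -0.02. RPL3L, the striated muscle counterpart of RPL3, read 3.26, 3.26 and 3.24 in A673 and 3.49, 3.47 and 3.27 in SK-N-MC, a difference of -0.15 that did not pass (adjusted p = 0.359 by limma). RPL3 itself, near the peptidyl transferase centre, read 10.26, 10.34 and 10.20 against 11, 11.14 and 11.07 and was lower, with a difference of -0.81 ± 0.10 (SE). Both dim paralogs sat near the floor in both lines.

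RPS27L, a p53-induced paralog of RPS27, read 3.52, 3.53 and 3.19 in A673 and 3.16, 3.18 and 3.34 in SK-N-MC, with overlap. RPS27 read 10.29, 10.77 and 10.39 against 10.80, 10.95 and 10.83 and was lower, with a difference of -0.38 ± 0.11 (SE), adjusted p = 0.0376 by limma. RPS27 did not pass without either control array or without either siITM2A array. RPL39, the partner of RPL39L, had no probe set of its own.

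The members were also counted by their place in the ribosome. Of the stalk that recruits elongation factors, RPL12 at its base read 10.72, 10.59 and 10.45 in A673 and 11.36, 11.30 and 11.37 in SK-N-MC, and was lower, with a difference of -0.76 ± 0.11 (SE). The acidic stalk proteins differed less. RPLP2 read 10.44, 10.63 and 10.43 against 10.76, 10.89 and 10.87, a difference of -0.34 (adjusted p = 0.0429 by limma) that no longer passed when any 1 of the 6 arrays was left out. RPLP1 read 10.38, 10.59 and 10.32 against 10.73, 10.77 and 10.67, a difference of -0.29 that did not pass (adjusted p = 0.0771).

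Of 6 measured proteins at the peptide exit tunnel, RPL31, RPL35, RPL17 and RPL23A were lower, RPL39L was higher, and RPL4, whose loop reaches into the tunnel, differed by -0.30 and did not pass (adjusted p = 0.0635 by limma). Of 5 at the mRNA entry and decoding sites, RPS2 and RPS15 were lower. RPS3, RPS23 and RPS20 differed by -0.29, -0.32 and -0.20 and did not pass. RPS3 read 11.82, 11.73 and 11.48 in A673 and 11.97, 11.94 and 11.98 in SK-N-MC, so that the siITM2A array of A673 lay furthest from the rest. RPS4X, an X-linked protein of the small subunit, read 11.48, 11.45 and 11.31 against 11.96, 11.92 and 11.92 and was lower, with a difference of -0.52 ± 0.10 (SE), a call lost without either siITM2A array. Without either siITM2A array RPL35, RPL17, RPL23A, RPS2 and RPS15 lost the call too, which left 1 lower gene of 6 at the tunnel and 0 of 5 at the mRNA entry and decoding sites.

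Of the 9 measured members known to bind MDM2 or act on p53, 5 were lower: RPL23, RPS14, RPS7, RPL11 and RPS27. RPL5, RPL26, RPS3 and RPS27L did not pass. RPL11, the partner of RPL5 in the 5S particle, read 10.15, 10.48 and 10.23 in A673 and 10.71, 10.78 and 10.74 in SK-N-MC, a difference of -0.46 against -0.08 for RPL5. The call on RPL11 was lost without either control array or either siITM2A array, and 3 of the 9 were lower without either siITM2A array. Of 14 members mutated in Diamond-Blackfan anaemia, 12 were lower, and RPL5 and RPL26 did not pass. Without either siITM2A array 6 of the 14 were lower: RPL27, RPL31, RPL35A, RPS24, RPS29 and RPS7. RPS19, the gene most often mutated in it, read 9.37, 9.96 and 9.63 against 10, 10.27 and 10.07, a difference of -0.46 ± 0.11 (SE), a call lost without the same arrays as that on RPL11. These lists were chosen with earlier results of these data known, and their shares are to be read against the 70.5% of the whole set.

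Ribosomal protein genes have many near-identical processed copies in the genome, and probe sets can bind transcripts of such copies; the sources used here do not give the position of the probes. A total of 21 of the 61 genes had several probe sets, 54 in all, and for each gene the brightest was kept. Of the 33 others, 1 was an identical copy. Of the remaining 32, 29 had a difference below 0, the median was -0.49, and 24 passed the threshold as lower, against 14.7% of all probe sets with 1 symbol. RPL29 had a second, dimmer probe set at 6.05, 6.41 and 6.18 in A673 and 7.68, 7.92 and 7.30 in SK-N-MC, and RPL14 one at 4.89, 4.90 and 4.69 against 5.69, 6.00 and 5.88. Both gave the direction of the brighter probe set, with differences of -1.42 and -1.03. The 3 probe sets of RPL5, with mean values from 6.69 to 11.86, gave differences of -0.08, -0.14 and -0.10.

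RPL13 was a case where the probe sets disagreed. Its 2 brighter ones differed by -0.04 and -0.05, while a dimmer one read 5.56, 6.18 and 5.99 in A673 and 5.38, 5.54 and 5.28 in SK-N-MC, a difference of 0.51 that passed as higher (adjusted p = 0.0202 by limma over probe sets). RPS15 had a second probe set near the floor, with a mean value of 2.78 and a difference of 0.02. For RPL41, which encodes a very short basic peptide, 2 probe sets held identical values on all 6 arrays and were counted once.

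The genes around the ribosomal protein genes on their chromosomes had medians closer to equal between the lines. For each gene, up to 10 of the nearest measured genes on each side in RefSeq order were taken, ribosomal protein genes excluded. RPL35A had 12 such neighbours, RPL8 had 19 and every other gene had 20. The neighbours of each gene gave a median difference between the lines. These medians ran from -0.43 to 0.33 with a middle value of -0.05, and 55 of the 61 ribosomal protein genes lay below the median of their own neighbours. A median over several genes varies less than a single gene, and the neighbours were not matched to the members in signal. By value, 56 of the 61 genes were lower in A673, so the 55 largely restate that count. No such share was taken over all genes. Across genes the member and its neighbours correlated at a Pearson's r of 0.43 and a Spearman's rho of 0.39, given as a description, since neighbouring genes share arrays and 4 pairs of members share neighbours.

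At 11 genes the neighbours were themselves lower, with a median of -0.20 or beyond. RPL14 (neighbours -0.43), RPL23 (-0.40), RPL29 and RPL19 (-0.36 each) and RPL11 (-0.33) lie there, and 10 of the 11 genes were lower, with a median of -0.73. RPL19 and RPL23 share 14 of their 20 neighbours. At the 47 genes whose neighbours were within 0.20 of equal, the median was -0.46, as over the whole set, and 33 were lower. RPS6, with neighbours at -0.08, and RPL27, with neighbours at -0.06, are among these 47. At RPL13, RPS25 and RPL8 the neighbours were higher in A673, with medians of 0.33, 0.22 and 0.25, and none of these 3 genes was lower. RPL39L stood apart from its neighbours, at 1.99 against 0.01. The counts of lower genes in these groups are to be read against 70.5% of the whole set and 14.7% of all genes. The part of the chromosomal region in these differences was not tested.

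**Figure D3:**
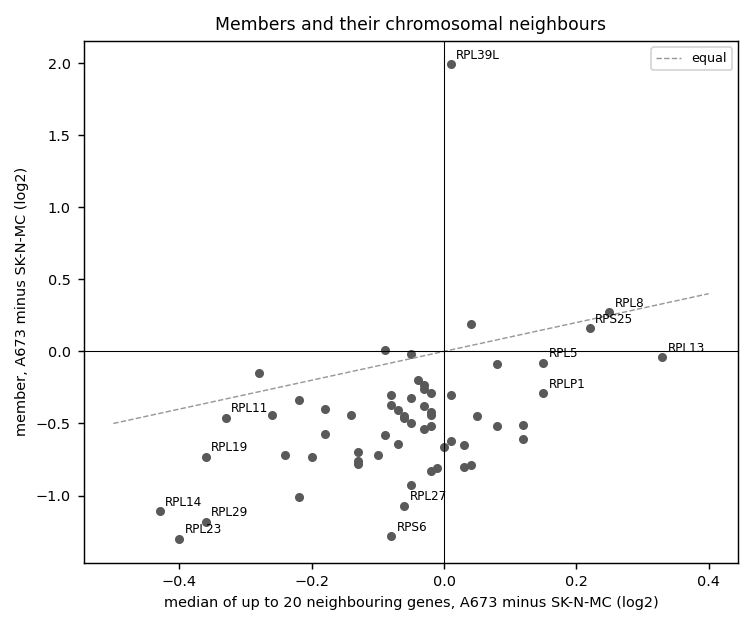
A673 minus SK-N-MC difference (log2) of each ribosomal protein gene (vertical axis) against the median difference of up to 20 neighbouring genes on its chromosome (horizontal axis). The dashed line marks equal values; 55 of 61 genes lie below it, RPL23, RPL29 and RPL14 at the lower left, RPL13, RPS25 and RPL8 at the right, and RPS6 far below its neighbours.

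Other genes of protein synthesis are given by their counts, beside the same 14.7% lower and 13.8% higher of all genes; the lists were not tested against each other. Of 72 genes of the mitochondrial ribosome, which translates mitochondrial messages, 28 were lower and 1 was higher, with a median of -0.19; MRPL37 was lower, with a difference of -1.09 and MRPS21 higher by 0.39. Of 34 genes listed as initiation factors 12 were lower and 3 higher, with EIF4B, a target of S6 kinase, at -0.79 and EIF3M at 1.12. The 34 include EIF4EBP1 and EIF4EBP2, which bind and hold back EIF4E, and neither passed. Of 6 elongation factors 3 were lower and 1 higher, with EEF1B2 at -0.58 and EEF1D at 0.50.

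Of 20 genes outside the set whose messages are known to start with the pyrimidine tract, 8 were lower and 2 higher. FAU among them encodes a small subunit protein under a symbol outside the naming rule. Its difference of -0.14 did not pass (adjusted p = 0.414 by limma). Of these 20, 9 are initiation or elongation factors counted above, with 6 lower and 1 higher, and of the other 11, 2 were lower and 1 higher. The median of the 20 was -0.30, and VIM, which encodes an intermediate filament protein, was higher by 2.03. Of 42 ribosome assembly factors 13 were lower and 6 higher, with NHP2 at -1.48 and DDX10 at 1.20. Of 21 genes of RNA polymerase I and its factors, which make ribosomal RNA, 8 were lower and 2 higher. This list also held MYC and MYCN. MYC is a transcription factor that acts on ribosomal RNA and ribosomal protein genes. It read 8.73, 8.91 and 8.74 in A673 and 9.99, 9.86 and 9.68 in SK-N-MC, a difference of -1.05 ± 0.11 (SE). UBTF, which binds ribosomal DNA, was at -1.18 and POLR1H at -1.17. TAF1C and TAF1B were higher, by 0.58 and 0.35, and MYCN, at -0.1, did not pass. A link between MYC and the ribosomal protein genes was not tested.

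Of 16 genes of S6 kinase and TOR signalling, 7 were lower and 2 higher. LARP1, which binds the pyrimidine tract, was lower, with a difference of -1.09, PDCD4, an inhibitor of initiation that S6 kinase marks for destruction, one of -1.92, and EEF2K, the kinase that holds back elongation, one of -1.26. The S6 kinase genes of the list went both ways. RPS6KB1 and RPS6KA1 were lower, with differences of -0.73 and -0.69, and RPS6KB2, at -0.24, did not pass. RPS6KA2, a kinase that can phosphorylate RPS6, was higher by 3.29, and RPS6KA3 was higher by 0.59. Of 4 ribosomal protein paralogs whose symbols fall outside the naming rule, RPL7L1 was lower, with a difference of -0.55 and the others did not pass. None of these lists had a gene that passed in any siRNA comparison.

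**Figure D4:**
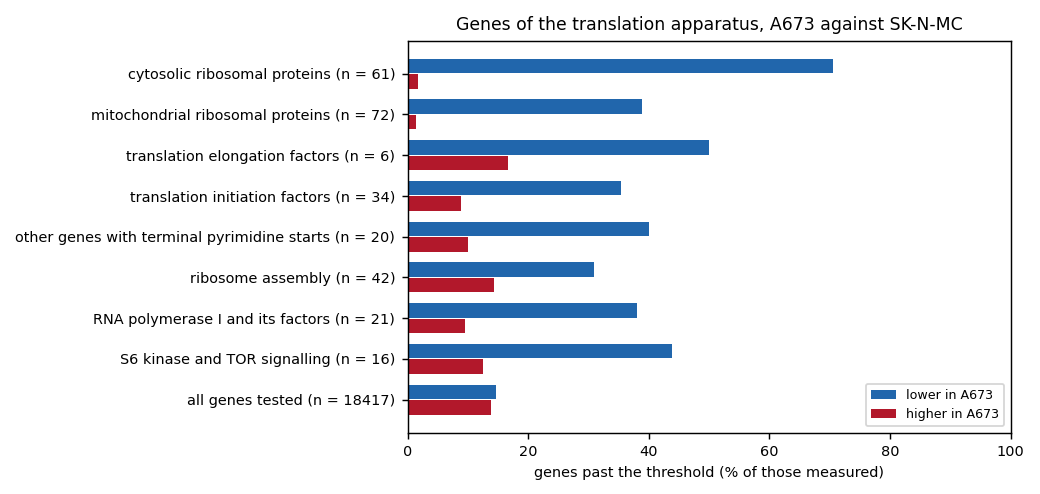
Share of measured genes (%, horizontal axis) that were lower (blue) or higher (red) in A673 at an adjusted p under 0.05, for the cytosolic ribosomal proteins, 7 other lists of genes of protein synthesis and all genes tested, with the number measured in brackets. The cytosolic ribosomal proteins reach 70.5% lower, against 14.7% of all genes.

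Knock-down of DKK2 was compared with the control siRNA in the same fit, with cell line as a block. No ribosomal protein gene passed the threshold by limma, against 0.0109% of all genes lower and 0.0% higher; at an unadjusted p under 0.05, 6 genes were higher (RPL41, RPL13, RPL27A, RPS19, RPL31, RPS27), against 2.97% of all genes, and 1 lower (RPL23), against 5.71%. The smallest adjusted p among the 61 genes was 0.414. The values leaned upward: 37 of 61 genes (60.7%) were above control in both lines, against 23.2% of all genes, and 10 were below in both, against 31.6%. Taken singly, 43 were above control in A673, against 42.8% of all genes, and 45 in SK-N-MC, against 48.6%. The median difference was 0.11, against -0.02 over all genes; it was 0.08 in A673 alone and 0.09 in SK-N-MC alone. At mean values of at least 9, 28 of 41 were above control in both lines, against 32.5% of all such genes, which include the 41. The median was 0.05 without the siDKK2 array of A673, 0.06 without the control array of SK-N-MC, and 0.15 without the control array of A673 or the siDKK2 array of SK-N-MC.

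Of the genes above control in both lines, RPL41 had the largest smaller difference of the 2, with 0.51 in A673 and 0.38 in SK-N-MC, from 10.46 to 10.97 and from 10.76 to 11.14. RPL13 differed by 0.52 and 0.32, RPL31 by 0.38 and 0.32, and RPL27A, which read 9.17 with control and 9.83 with siDKK2 in A673, by 0.66 and 0.30. RPS19 differed by 0.59 and 0.26. None of these 5 genes passed over all genes tested (adjusted p 0.414 to 0.505 by limma).

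Below control in both lines were RPL23 (-0.14 in A673 and -0.61 in SK-N-MC), RPL10 (-0.11 and -0.35), RPL5 (-0.21 and -0.08) and RPL32 (-0.53 and -0.08), the last a dim probe set at 4.41 to 5.00. The larger difference was in SK-N-MC for RPL23 and RPL10 and in A673 for RPL5 and RPL32. RPS6 differed by 0.04 and 0.11. No test within a line is possible, since each siRNA had 1 array there.

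With siITM2A the set did not lean one way in both lines. No gene passed by limma, against 0.0109% of all genes lower and 0.0% higher; at an unadjusted p under 0.05, RPL41 alone was higher, against 2.48% of all genes, and none was lower, against 4.43%. The median difference was 0.03, with -0.05 in A673 and 0.08 in SK-N-MC. It became 0.09 without the siITM2A array of A673, 0.05 without its control array, -0.01 without the control array of SK-N-MC and -0.03 without its siITM2A array. In A673, 22 of 61 genes were above control, against 42.8% of all genes, and in SK-N-MC 47, against 47.6%. In both lines 21 genes (34.4%) were above control, against 21.2% of all genes, and 13 below, against 30.7%.

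RPL41 again read above control in both lines, by 0.40 and 0.41, and RPL13 by 0.36 and 0.19. RPS15A differed by 0.14 and 0.24, and RPL7 by 0.13 and 0.19. Below control in both lines were RPL10 (-0.29 and -0.26), RPL23 (-0.15 and -0.12), RPL39L (-0.12 and -0.16) and RPL4 (-0.10 and -0.14). Both siRNA comparisons use the same control arrays, so a low or high control value enters both; for RPL41 the control array gave the lowest value of each line. The largest single differences were in SK-N-MC, at 0.82 for RPL26, 0.76 for RPL19 and 0.61 for RPL17, while the same genes differed by -0.11, -0.02 and 0.06 in A673. RPL26 read 6.69, 6.91 and 7.51 in SK-N-MC with control, siDKK2 and siITM2A, and 6.98, 6.97 and 6.87 in A673. These 3 differences in 1 line were picked out after their values were seen.

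**Figure D5:**
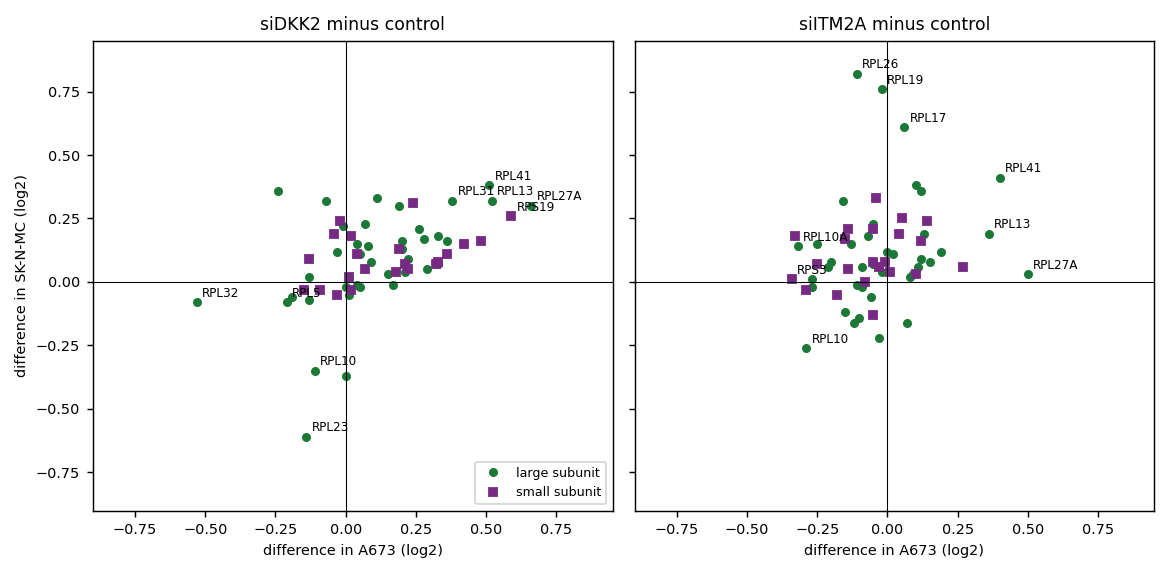
Difference from the control siRNA (log2) in SK-N-MC (vertical axis) against that in A673 (horizontal axis) for the 61 ribosomal protein genes, with siDKK2 on the left and siITM2A on the right; each point is 1 gene from 1 array per line and siRNA. With siDKK2 37 genes lie at the upper right of both zero lines; with siITM2A 21 do, and RPL26, RPL19 and RPL17 stand high on the SK-N-MC axis and near 0 on that of A673. Both panels use the same control arrays.

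Between the 2 knock-downs, siDKK2 against siITM2A, no gene passed by limma, against 0.00543% of all genes higher and 0.0109% lower; at an unadjusted p under 0.05, RPS24 and RPS21 were higher, against 3.97% of all genes, and none was lower, against 4.35%. The median difference was 0.08, with 0.14 in A673 and 0.01 in SK-N-MC. It became 0.0 without the siITM2A array of A673, 0.03 without its siDKK2 array, 0.14 without the siITM2A array of SK-N-MC and 0.12 without its siDKK2 array. In A673, 53 of 61 genes (86.9%) were higher with siDKK2, against 49.4% of all genes, and in SK-N-MC 33 (54.1%), against 50.3%. Bright genes leaned the same way. At mean values of at least 9, 37 of 41 members were higher in A673, against 187 of all 311 such genes. In SK-N-MC 25 of the 41 were higher, against 181 of the 311, which include the 41. In both lines 32 genes (52.5%) were higher, against 27.4% of all genes, and 7 lower, against 27.5%. RPS24, a Diamond-Blackfan anaemia gene, read 7.50 against 7.03 in A673 and 8.15 against 7.86 in SK-N-MC. RPL31 differed by 0.23 in both lines, RPS19 by 0.33 and 0.20, and RPL27A by 0.16 and 0.28. Lower with siDKK2 in both lines were RPL19 (-0.22 and -0.40), RPL5 (-0.22 and -0.19), RPL17 (-0.13 and -0.30) and RPL8 (-0.10 and -0.12). The siITM2A arrays are also those on which the difference between the lines was largest, with a median of -0.61.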

How the data were processed

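Per the labels, total RNA was extracted, amplified with a whole-transcript sense kit, labelled with biotin and hybridised to 6 arrays. Affymetrix Expression Console and RMA are named in the submitters' processing notes, with versions and settings not given in the sources used here. The authors deposited 1 value per probe set, taken as log2 from a range of 1.02 to 13.4. RMA equalises the distributions of the arrays and compresses dim differences, and the values are relative to the RNA on each array. Symbols came from the platform annotation (33297 probe sets, 19460 with 1 symbol); per gene the probe set with the highest mean was kept, which left 18417 genes. All were fitted together with limma 3.58.1 in R 4.3.3 (lmFit, eBayes; siRNA and line as terms, 2 residual degrees of freedom, 8.28 after moderation) and adjusted by Benjamini-Hochberg, threshold 0.05. The fit was tested on simulated data.

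The members, gene lists and rules were chosen with earlier results of these data known. Genes are named for the 8 lowest and the 8 highest line differences, and as paralogs ending in L with their partners. Of the 8 highest only RPL39L passed, and RPL10L, RPL13 and RPL5 among them had differences below 0. Also named are the stalk proteins, the 3 brightest and dimmest members and the 4 largest same-direction differences of each siRNA comparison. Lists of translation genes gave further names, and others are said to be picked after seeing values. Alternatives were an intensity trend, a filter on dim genes, the mean of probe sets, 2 other scalings, fits without the block, and each array left out.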

Additional observations from a re-analysis of the deposited data

Results flagged for a closer look

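RPL30, a large subunit protein that binds a kinked turn of RNA, differed in opposite directions between siDKK2 and siITM2A in the 2 lines: by 0.33 in A673, where it read 10.35 against 10.02, and by -0.33 in SK-N-MC, where it read 10.66 against 10.98. It stands here because both differences were at least 0.25 on the log2 scale and opposed each other. With 1 array per line and siRNA, the difference between the lines was not tested.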

How the results depend on the processing

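The direction of the 44 called line differences was the same under all 12 alternatives in which they were tested, and no named result reversed; of 47 named results 41 kept their side of the threshold throughout. RPLP2, RPS27 and RPS4X lost it under at least 1 alternative, and RPL8, RPLP1 and RPS3 gained it. The count of genes lower in A673 was 43, from 22 to 36 with 1 array left out, where leaving out either array of an siRNA gives the same fit, 22 without the siITM2A array of A673 or of SK-N-MC, and 40 to 48 otherwise. The count higher in A673 was 1, and became 2 with an intensity trend, 2 with a further quantile normalization and 0 among genes at or above the median level, which leaves out RPL39L and 3 other members. The siDKK2 median of 0.11 became 0.14 with arrays centred on their medians, 0.09 with quantile normalization, and 0.05 to 0.15 with 1 array left out; the cause was not tested. The block pairs arrays by cell line, per the labels; without the replicate block 0 members passed in each siRNA comparison and the siDKK2 median stayed at 0.11, and the line comparison without the siRNA term gave 41 genes lower and 1 higher. Precision is limited by 6 arrays and dim signal near the floor.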

Other observations

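A further 47 probe sets carried several symbols, at least 1 of them a ribosomal protein symbol. They were left out of every test because they cannot be given to 1 gene. Of these 42 were lower in A673 than in SK-N-MC, with a median difference of -0.45 and a range of -2.85 to 0.47 on the log2 scale. All 3 A673 arrays lay below all 3 SK-N-MC arrays in 31 of them, against 17.6% of all 33297 probe sets, and above in 3, against 14.5%. Of the 20 ribosomal protein symbols with no probe set of their own, 11 occurred in these probe sets.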
